A study of Homo sapiens with 16 samples.

Results

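Sanguinarine, a benzophenanthridine alkaloid, was compared with cepharanthine, a bisbenzylisoquinoline alkaloid, over all genes in NCI-H1688, a human lung cancer cell line that the series design calls small cell lung cancer. Of the 16 RNA sequencing libraries in the series, 4 enter the comparison, 2 of cells given sanguinarine chloride at 1 µM and 2 of cells given cepharanthine at 3 µM. Both exposures lasted 24 h. The doses differ, so every value below sets 1 dose of a compound against another dose of the other and says nothing of potency. The 2 control libraries of the same deposited table are given beside them as levels. The table's 2 libraries of evodiamine, another plant alkaloid given at 3 µM for 24 h, enter only the fit. There they and the control libraries share in the gene filter, the scaling and the estimate of the spread. The control labels read untreated, whereas the series design names DMSO, and both alkaloids share these control libraries. The comparison covers 44591 gene rows, of which 18756 held enough reads to be tested.

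Both compounds are plant alkaloids with several known cellular effects. Sanguinarine carries an iminium group that reacts with thiols such as glutathione, and cells meet thiol-reactive compounds by way of NRF2, a transcription factor that KEAP1 holds back until it is modified. Cepharanthine is a cationic amphiphilic compound, a class known to gather in lysosomes. Cholesterol leaves the lysosome through NPC1, and when too little reaches the endoplasmic reticulum the factor SREBP2 turns on the genes of cholesterol synthesis and uptake, while LXR, a nuclear receptor for oxidised sterols, turns on cholesterol export.

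Depth was 50290432 and 52794097 counted reads in the sanguinarine libraries, 51511983 and 56290153 in the cepharanthine libraries and 43289277 and 53877601 in the control libraries. A gene without reads could stand at up to 0.0533 to 0.0693 CPM in these 6 libraries, taking 3 counts as the limit, for counting error only. Levels are counts scaled to a common library size (CPM, with TMM factors from edgeR) and are not corrected for gene length. Duplicates correlated at 0.9981 with sanguinarine and 0.9976 with cepharanthine on log2(CPM + 1), against 0.9899 to 0.9913 between libraries of different alkaloids, over genes, which are not independent replicates. The spread within pairs was also taken as a chi-square per degree of freedom, near 1 for counting error alone. It was 4.92 with sanguinarine, 12.3 with cepharanthine and 5.63 in the control, so the cepharanthine duplicates agreed least by this measure. The epithelial markers KRT8, KRT18, KRT19, EPCAM and CDH1 stood at 167 to 2200 CPM in the 6 libraries. The neuroendocrine factors NEUROD1 and INSM1, known from small cell lung cancer, had 0 reads in each of them, and YAP1, which marks a non-neuroendocrine form, stood at 271 to 300 CPM. Markers of the labelled cell type, epithelial cell, were thus present, and these neuroendocrine factors, which would mark the usual small cell lung cancer, were not detected.

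The alkaloids left clearly different transcriptomes. A gene is called higher or lower with sanguinarine where edgeR's quasi-likelihood test gave a Benjamini-Hochberg adjusted p under 0.05 over all genes tested. There were 6548 such genes, 34.9% of those tested, with 3221 higher (17.2%) and 3327 lower (17.7%). Most differences were small, and 977 genes (5.21%) differed more than 2-fold, 779 higher (4.15%) and 198 lower (1.06%). The libraries of the alkaloids did not overlap in 64.8% of genes tested. Beyond 4-fold the calls were 284 higher and 45 lower, and among protein-coding genes 215 and 15. The balance of directions depends on scaling, since 49.2% of calls were higher here and 66.8% with total counts alone. A fit of all 16 libraries called 3267 genes, of which 3167 were among the 6548 and had the same direction. Differences are given as log2, sanguinarine minus cepharanthine, with an approximate standard error after ±.

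**Figure D1:**
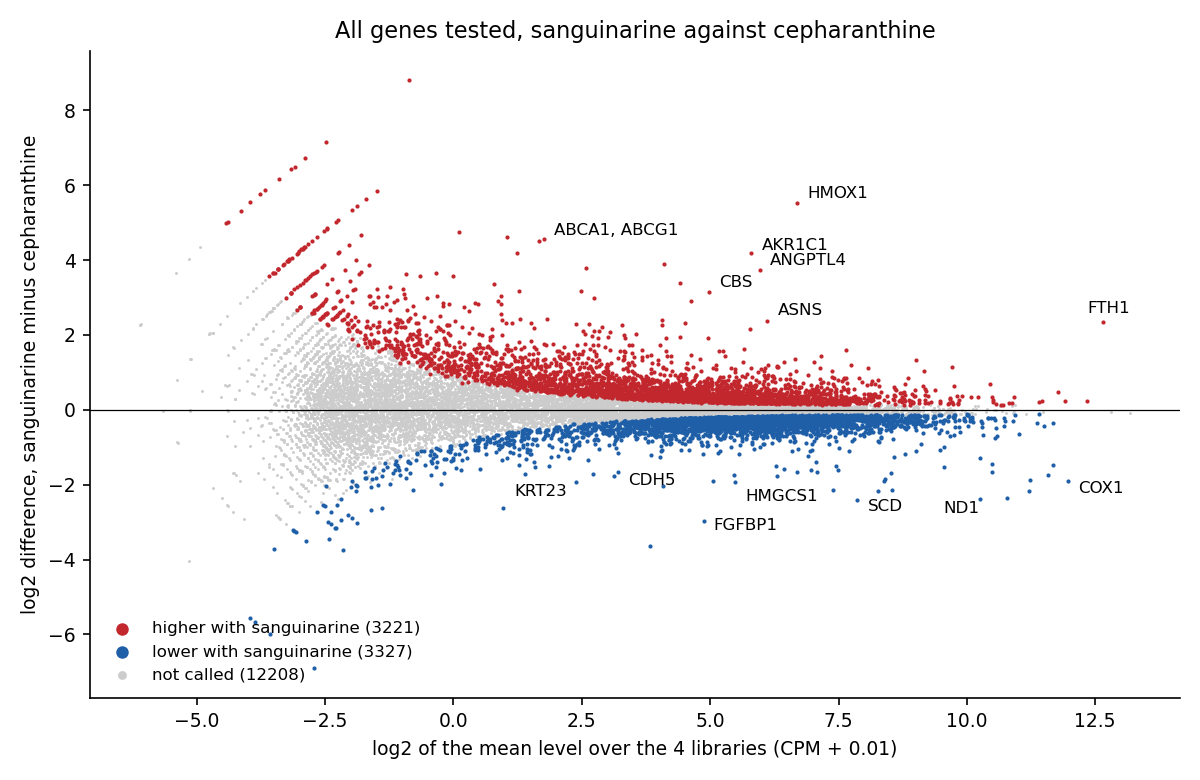
Each point is a gene, with its mean level over the 4 libraries across (log2 of CPM + 0.01) and its log2 difference, sanguinarine minus cepharanthine, upward. Red points (3221) were called higher with sanguinarine, blue points (3327) lower and grey points (12208) were not called; HMOX1 stands highest among called protein-coding genes of at least 5 CPM with either alkaloid.

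Both ends of the ranking held genes of a few known pathways. Of the 12 protein-coding genes furthest up, HMOX1 and AKR1C1 belong to the response to thiol-reactive compounds, ABCG1 and ABCA1 export cholesterol, and ALDH1L2 and CBS serve folate and sulfur amino acid metabolism. Among the 12 furthest down, SCD, HMGCS1, ACAT2 and INSIG1 serve lipid synthesis and its control, and ND1, COX3, ATP8, ATP6 and COX1 are encoded by mitochondrial DNA. Also there were CRIP2, ANGPTL4, ZNF469, MAP2, RRAD and AKR1C2 on the higher side and FGFBP1 and KRT23 on the lower.

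Counts of members called are given for 40 gene lists, beside 34.9% called over all genes and 42.5% over protein-coding genes. The median log2 difference over all genes tested was 0.00. The lists were chosen with earlier results of these data known, so their counts are descriptions.

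**Figure D2:**
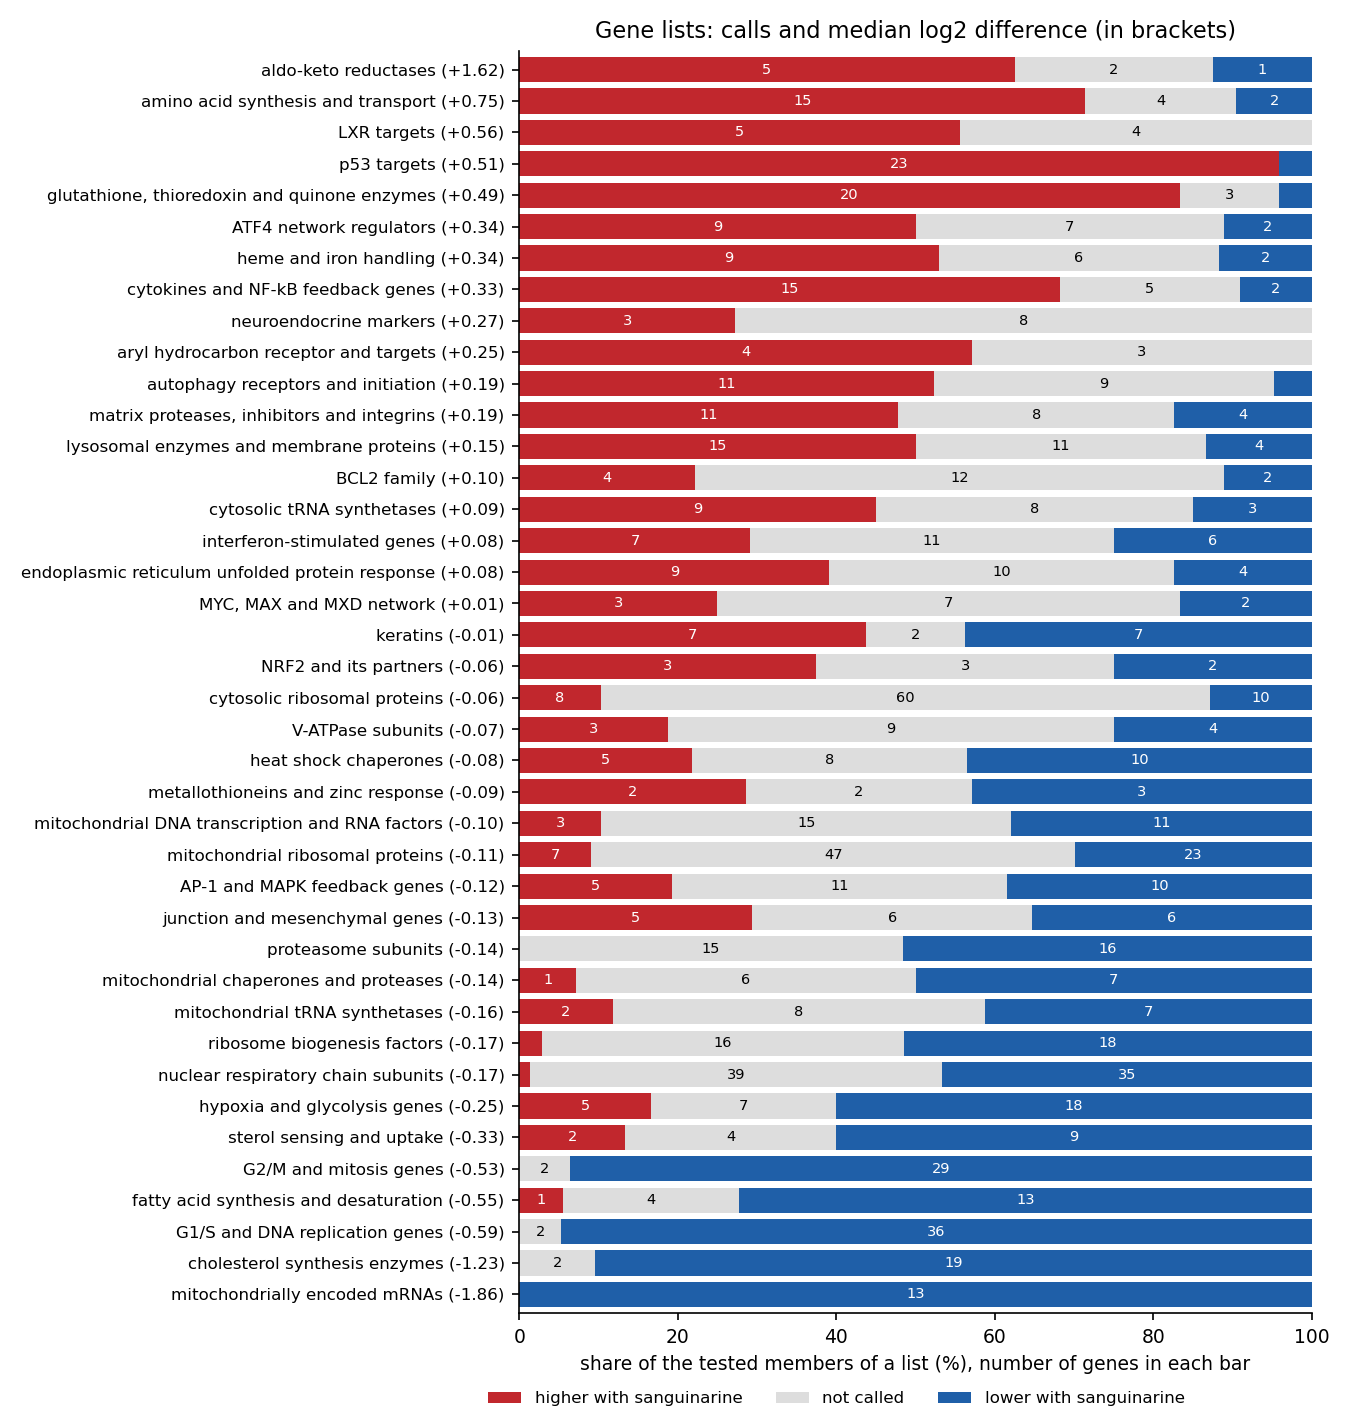
Each row is a gene list with its median log2 difference, sanguinarine minus cepharanthine, in brackets, and bars give the share of tested members called higher (red), not called (grey) and called lower (blue), with the number of genes. The lists run from aldo-keto reductases at 1.62 to mitochondrially encoded mRNAs at -1.86.

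Cholesterol synthesis separated the alkaloids over the whole pathway. Of 21 enzymes, 19 were lower with sanguinarine, 13 of them more than 2-fold, and 0 were higher. The list median was -1.23. The difference lay in the cepharanthine libraries, where the median stood 1.31 above the control, against 0.04 above it with sanguinarine. HMGCS1, which makes HMG-CoA, had 64.2 and 60.5 CPM with sanguinarine, 264 and 284 CPM with cepharanthine and 53.5 and 53.9 CPM in the control. The sanguinarine and control libraries lay close together and well below the cepharanthine libraries. The log2 difference was -2.13 ± 0.06 (edgeR adjusted p = 2.49e-23). ACAT2, which condenses acetyl-CoA at the entry of the pathway, had 19.9 and 17.4 CPM with sanguinarine, 69 and 73.8 CPM with cepharanthine, and 27.3 and 26.9 CPM in the control, and it differed by -1.94 ± 0.08. MSMO1, a sterol demethylase component late in the pathway, differed by -1.76 ± 0.08. The 2 enzymes that did not pass were PMVK, phosphomevalonate kinase, at 19.8 and 20 CPM with sanguinarine against 19.2 and 17.6 CPM with cepharanthine, and GGPS1, which leads isoprenoids away from sterols, at 16 and 16.5 CPM against 14.4 and 16 CPM.

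Of 15 genes of sterol sensing and uptake, 9 were lower, 2 were higher and 4 were not called. INSIG1, which holds SREBP in the endoplasmic reticulum when sterols are plentiful, had 14.6 and 13.2 CPM with sanguinarine, 53 and 51.3 CPM with cepharanthine, and 6.03 and 5.86 CPM in the control. INSIG1 thus stood above the control with both alkaloids and highest with cepharanthine, a difference of -1.91 ± 0.09. SREBF2, which encodes SREBP2, was at 123 and 125 CPM with sanguinarine, 171 and 160 CPM with cepharanthine, and 86.9 and 80.6 CPM in the control, a difference of -0.41 ± 0.06. The lysosomal cholesterol transporter NPC1 differed by -0.33 ± 0.07, at 44.4 and 46 CPM with sanguinarine, 56.7 and 56.9 CPM with cepharanthine and 31.6 and 28.7 CPM in the control. SCARB1, a lipoprotein receptor, and SREBF1, which encodes SREBP1, were higher, by 0.26 ± 0.07 and 0.21 ± 0.07. Neither passed in the fit of all 16 libraries, and SREBF1 also did not pass without sanguinarine replicate 2 or without cepharanthine replicate 2, each of which left 1 member higher, whereas 4 were higher without cepharanthine replicate 1.

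Fatty acid genes followed, with 13 of 18 lower, 1 higher and 4 not called, and a median of -0.55. SCD, the desaturase that makes oleate, had 73.5 and 74.3 CPM with sanguinarine, 390 and 393 CPM with cepharanthine, and 52 and 56.3 CPM in the control. This difference, -2.41 ± 0.06 (edgeR adjusted p = 3.69e-25), rested on duplicates that lay within a few CPM of each other. ELOVL6, a fatty acid elongase, differed by -1.04 ± 0.07, FADS2, a desaturase of polyunsaturated fats, by -0.85 ± 0.07, and LPIN1, a phosphatidate phosphatase, by -0.78 ± 0.10. FADS3, a desaturase relative, went against them and was higher by 0.49 ± 0.06, the one member higher, against 2 without cepharanthine replicate 2.

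Of 9 LXR targets tested, 5 were higher and 0 lower. ABCA1, which hands cholesterol to apolipoprotein A-I, had 5.99 and 6.13 CPM with sanguinarine, 0.375 and 0.162 CPM with cepharanthine, and 6.03 and 6.36 CPM in the control. ABCG1, which exports cholesterol to HDL, had 7.33 and 5.66 CPM with sanguinarine, 0.296 and 0.252 CPM with cepharanthine, and 8.29 and 7.98 CPM in the control. MYLIP, the ubiquitin ligase IDOL, had 4.54 and 4.96 CPM with sanguinarine, 0.908 and 0.989 CPM with cepharanthine, and 6.32 and 6.99 CPM in the control. All 3 sat near the control with sanguinarine and far below it with cepharanthine. Their differences were 4.51 ± 0.23 for ABCA1, 4.56 ± 0.23 for ABCG1 and 2.32 ± 0.19 for MYLIP, from few reads in the cepharanthine libraries. NR1H3, which encodes LXR alpha, was higher by 0.64 ± 0.12, and PLTP, a phospholipid transfer protein, by 0.45 ± 0.08, the last not in the fit of all 16 libraries. APOE, APOC1, LPCAT3 and SMPDL3A did not pass, with differences of 0.56, -0.46, 0.15 and -0.18.

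**Figure D3:**
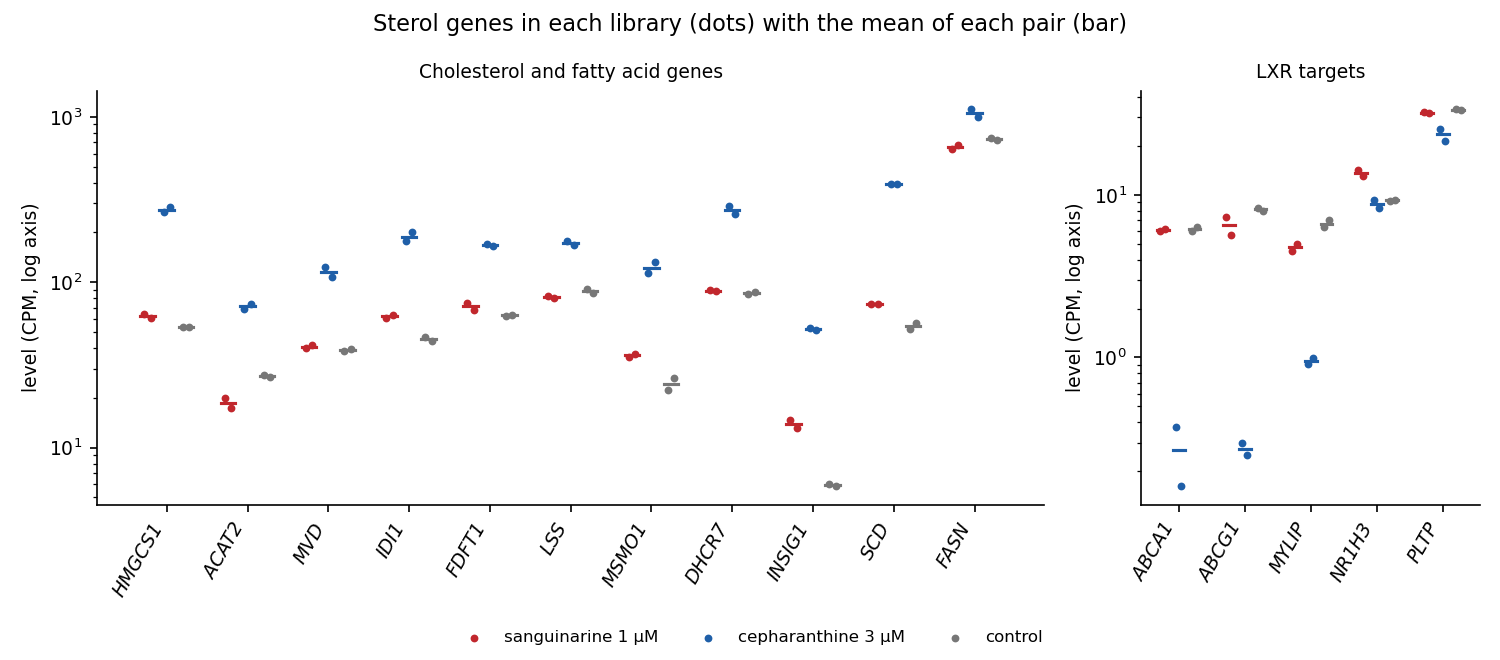
Levels in CPM on a log axis for genes of cholesterol and fatty acid synthesis and uptake (left) and for LXR targets (right), with a dot for each library and a bar for the mean of each pair. Cepharanthine libraries stand above both others on the left, and ABCA1, ABCG1 and MYLIP stand below 1 CPM with cepharanthine on the right.

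SREBP2 binds the sterol regulatory element, searched here as TCACNCCAC on both strands. In RefSeq promoters (GRCh38.p14, 250 bases before to 50 after a start), 1.39% of 27305 genes held it. It was found in 0 of 16 cholesterol synthesis genes with a promoter in the table, in 1 of 11 sterol sensing genes and in 1 of 16 fatty acid genes. Counts this small cannot tell whether these letters in this window set the lists apart, which was not tested. The match among genes called was in SREBF2, shown because SREBP2 is known to act on its own gene. The stretch is chr22:41832855-41833104 on the plus strand, the 250 bases before the start, with the match in capitals.
SREBF2: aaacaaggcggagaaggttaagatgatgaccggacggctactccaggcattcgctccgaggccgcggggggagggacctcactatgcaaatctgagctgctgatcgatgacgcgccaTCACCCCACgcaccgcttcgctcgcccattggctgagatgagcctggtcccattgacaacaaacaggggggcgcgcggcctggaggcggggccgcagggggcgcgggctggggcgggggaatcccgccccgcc

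Lysosomal genes differed in small steps and in both directions. Of 30 enzymes and membrane proteins, 15 were higher and 4 lower (8 and 2 in the fit of all 16 libraries), with a median of 0.15. SMPD1, the acid sphingomyelinase, had 46 and 45.7 CPM with sanguinarine, 30.6 and 26.4 CPM with cepharanthine, and 25.9 and 26.1 CPM in the control. LIPA, the acid lipase that frees cholesterol from its esters, was lower by 0.75, at 49.4 and 48.6 CPM with sanguinarine, 79.2 and 85.6 CPM with cepharanthine, and 65 and 69.5 CPM in the control. CTSD, an aspartic protease, was higher by 0.55 ± 0.06, and CTSC, a peptidase that activates other proteases, differed by -0.59 ± 0.06. Over 16 subunits of the vacuolar proton pump, 3 were higher and 4 lower, a share near that of protein-coding genes as a whole.

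Autophagy genes were higher more often than lower, at 11 against 1 of 21, but 5 were higher in the fit of all 16 libraries and 5 without sanguinarine replicate 1. The member lower did not pass in that fit, with total counts alone, without sanguinarine replicate 2 or without cepharanthine replicate 1, each leaving 0. SQSTM1, the cargo receptor p62, had 1090 and 1010 CPM with sanguinarine, 707 and 630 CPM with cepharanthine, and 336 and 327 CPM in the control, so both alkaloids stood above the control. Differences were 0.65 ± 0.05 for SQSTM1, 0.89 ± 0.08 for the starter kinase ULK1, 0.72 ± 0.08 for GABARAPL1, which coats autophagosomes, and 1.11 ± 0.25 for TFEB, a transcription factor of lysosomal genes.

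Heme and iron genes held the largest difference among called protein-coding genes of at least 5 CPM with either alkaloid. HMOX1, which breaks heme down to biliverdin, iron and carbon monoxide, had 219 and 185 CPM with sanguinarine, 4.22 and 4.58 CPM with cepharanthine, and 1.48 and 1.75 CPM in the control. Both alkaloids stood above the control, by log2 differences of 6.95 with sanguinarine and 1.43 with cepharanthine. The difference between the alkaloids was 5.52 ± 0.10, or 45.9-fold (edgeR adjusted p = 9.27e-29). FTH1, the ferritin heavy chain that stores iron, had 10900 and 10500 CPM with sanguinarine, 2240 and 1950 CPM with cepharanthine, and 1260 and 1260 CPM in the control. It differed by 2.35 ± 0.05, and FTL, the light chain, by 1.14 ± 0.06. Reads of FTH1 may be shared in part with its processed pseudogenes. SLC40A1, the iron exporter ferroportin, was higher by 0.85 ± 0.18. TFRC, which takes up transferrin-bound iron, had 585 and 594 CPM with sanguinarine, 819 and 890 CPM with cepharanthine, and 543 and 568 CPM in the control, a difference of -0.54 ± 0.05. FLVCR1, a heme and choline transporter, also was lower, by 0.42. In all, 9 of 17 were higher, 2 lower and 6 not called.

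Genes of glutathione, thioredoxin and quinone metabolism were higher in 20 of 24 cases, 8 of them more than 2-fold. The median stood 0.60 above the control with sanguinarine and 0.05 above it with cepharanthine. SLC7A11, the cystine importer that feeds glutathione synthesis, had 314 and 290 CPM with sanguinarine, 93.6 and 107 CPM with cepharanthine, and 96.8 and 96.1 CPM in the control. GCLM, a subunit of the enzyme that starts glutathione synthesis, had 153 and 136 CPM with sanguinarine, 54.9 and 58.2 CPM with cepharanthine, and 66.8 and 59.4 CPM in the control. NQO1, a quinone reductase, had 377 and 362 CPM with sanguinarine, 177 and 160 CPM with cepharanthine, and 157 and 167 CPM in the control. In these 3 genes the cepharanthine libraries stood close to the control and the sanguinarine libraries far above both. The differences were 1.59 ± 0.06 for SLC7A11, 1.35 ± 0.07 for GCLM and 1.13 ± 0.06 for NQO1. ABCC3, an exporter of conjugates, differed most in the list, by 2.15 ± 0.08. CBR3, a carbonyl reductase, was lower, by 0.46, at 11.9 and 10.7 CPM with sanguinarine against 16.4 and 14.7 CPM with cepharanthine. PRDX1, GPX4 and CBR1 did not pass.

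Aldo-keto reductases, which reduce carbonyls and steroids, were higher in 5 of 8 cases and lower in 1. AKR1C1 had 117 and 94.3 CPM with sanguinarine, 6.55 and 5.18 CPM with cepharanthine, and 2.30 and 2.00 CPM in the control. AKR1C2 had 45.8 and 41 CPM with sanguinarine, 6.44 and 5.21 CPM with cepharanthine, and 2.66 and 2.51 CPM in the control. AKR1C3 had 18.7 and 13.6 CPM with sanguinarine, 3.93 and 2.75 CPM with cepharanthine, and 1.65 and 1.62 CPM in the control. The order sanguinarine, cepharanthine, control held without overlap in all 3, with differences between the alkaloids of 4.18 ± 0.11, 2.90 ± 0.11 and 2.28 ± 0.17. These paralogs are close in sequence, and reads may be split between them. AKR1B10 was seen at 0.572 and 0.791 CPM with sanguinarine, against 0.0197 and 0 CPM with cepharanthine, where it rests on 1 read. AKR1B1, which reduces glucose to sorbitol, was higher by 0.72 ± 0.06, AKR7A2 was lower by 0.41, and AKR1A1 and AKR7A3 did not pass.

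Of NRF2 and 7 partners, 3 were higher and 2 lower, and 1 and 0 in the fit of all 16 libraries. Without sanguinarine replicate 1, or with total counts alone, 0 were lower, and without sanguinarine replicate 2 or either control library, 1 was lower. NFE2L2, which encodes NRF2, had 96.3 and 96.3 CPM with sanguinarine, 92.6 and 98.2 CPM with cepharanthine, and 91.5 and 94.4 CPM in the control, and the 95% interval of its log2 difference ran from -0.11 to 0.14. KEAP1 was higher by 0.31 ± 0.06 and the related factor NFE2L1 by 0.39 ± 0.05, the first not in the fit of all 16 libraries. BACH1, a repressor of HMOX1, was lower by 0.24, but did not pass in that fit, with total counts alone or without sanguinarine replicate 1.

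NRF2 binds the antioxidant response element, searched as TGACNNNGC on both strands. It was found in 16.1% of the 27305 genes, and in 7 of 17 glutathione, thioredoxin and quinone genes, 1 of 8 aldo-keto reductases and 2 of 15 heme and iron genes with a promoter in the table. Of the 7, 6 were called higher and 1 was not called, among 15 genes called higher and 2 not called. GCLM and TXNRD1 are shown as members with a match before the start, beginning 34 and 99 bases from it. TXNRD1, a thioredoxin reductase that was higher by 1.05 ± 0.05, was chosen after its values were seen. This gene has 2 starts in RefSeq, and the stretch with most matches before its start was taken. The stretches are chr1:93909431-93909680 on the minus strand and chr12:104215529-104215778 on the plus strand, each read 5′ to 3′ along the gene, with the match in capitals.
GCLM: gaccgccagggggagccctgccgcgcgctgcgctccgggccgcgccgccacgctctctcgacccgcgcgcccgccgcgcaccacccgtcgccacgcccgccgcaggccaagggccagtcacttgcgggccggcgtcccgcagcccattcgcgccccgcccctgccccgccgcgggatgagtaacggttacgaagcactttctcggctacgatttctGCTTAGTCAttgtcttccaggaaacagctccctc
TXNRD1: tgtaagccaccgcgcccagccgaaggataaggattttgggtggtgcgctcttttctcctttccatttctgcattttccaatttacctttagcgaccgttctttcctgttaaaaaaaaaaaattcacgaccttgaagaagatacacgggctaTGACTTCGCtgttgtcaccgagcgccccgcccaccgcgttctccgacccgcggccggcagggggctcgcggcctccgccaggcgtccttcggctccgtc

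ATF4 is the factor that cells translate when eIF2 alpha is phosphorylated under amino acid, heme, mitochondrial or unfolded protein stress, and it turns on amino acid synthesis, transport and charging. Among 21 tested genes of amino acid synthesis and transport, 15 were higher, 9 of them more than 2-fold, and 2 lower, with a median of 0.75. Relative to the control the median was 0.64 with sanguinarine and -0.07 with cepharanthine. ALDH1L2, a mitochondrial folate enzyme, had 32 and 32.1 CPM with sanguinarine, 1.74 and 2.55 CPM with cepharanthine, and 2.25 and 2.02 CPM in the control. CBS, which joins homocysteine and serine, had 57.2 and 56.1 CPM with sanguinarine, 6.57 and 6.27 CPM with cepharanthine, and 5.36 and 5.96 CPM in the control. ASNS, asparagine synthetase, had 122 and 110 CPM with sanguinarine, 23.3 and 21.2 CPM with cepharanthine, and 17.7 and 20 CPM in the control. For all 3 the cepharanthine libraries lay near the control. The differences were 3.89 ± 0.15, 3.14 ± 0.10 and 2.38 ± 0.08, and the glycine transporter SLC6A9 followed with 2.28 ± 0.11. ALDH18A1, which starts proline synthesis, was lower by 0.36, and GOT1, an aspartate aminotransferase, by 0.26, the last not in the fit of all 16 libraries or without sanguinarine replicate 2, each of which left 1 member lower. SLC38A2, SLC7A1, SLC3A2 and CTH did not pass.

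Regulators of the network were split. Of 18 tested, 9 were higher, 2 lower and 7 not called. ATF4 itself had 217 and 209 CPM with sanguinarine, 209 and 210 CPM with cepharanthine, and 213 and 216 CPM in the control, with an interval from -0.09 to 0.13. DDIT3, which encodes CHOP, had 12.2 and 11.6 CPM with sanguinarine, 11.2 and 9.10 CPM with cepharanthine, and 6.18 and 5.08 CPM in the control, so both alkaloids stood above the control and the difference between them, 0.23, did not pass. NUPR1, a small stress-induced chromatin protein, had 38.5 and 37.5 CPM with sanguinarine, 8.59 and 6.76 CPM with cepharanthine, and 5.68 and 5.24 CPM in the control. CHAC1, which degrades glutathione, was higher by 1.57 ± 0.14, ATF3 by 1.54 ± 0.11 and the secreted stanniocalcin STC2 by 1.05 ± 0.06. DDIT4, an inhibitor of mTORC1, went against these, with 90.8 and 95 CPM with sanguinarine, 173 and 158 CPM with cepharanthine, and 80.8 and 76.7 CPM in the control. PPP1R15A, the GADD34 subunit that reverses eIF2 alpha phosphorylation, had 261 and 255 CPM with sanguinarine, 334 and 331 CPM with cepharanthine, and 158 and 142 CPM in the control. They differed by -0.83 ± 0.06 and -0.37 ± 0.06.

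The enzymes that charge tRNA in the cytosol fell into separate sets. Of 20, 9 were higher, 3 lower and 8 not called. CARS, for cysteine, had 127 and 120 CPM with sanguinarine, 63.7 and 63.7 CPM with cepharanthine, and 68.5 and 69.1 CPM in the control. Differences were 0.96 ± 0.06 for CARS, 0.87 ± 0.06 for WARS (tryptophan), 0.72 ± 0.05 for MARS (methionine) and 0.68 ± 0.06 for GARS (glycine). VARS (valine), KARS (lysine) and HARS (histidine) were lower, by 0.21, 0.20 and 0.17, and none of these passed in the fit of all 16 libraries or with total counts alone. Without sanguinarine replicate 1, or without cepharanthine replicate 1, 1 synthetase was lower. Those not called lay between -0.10 and 0.09.

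**Figure D4:**
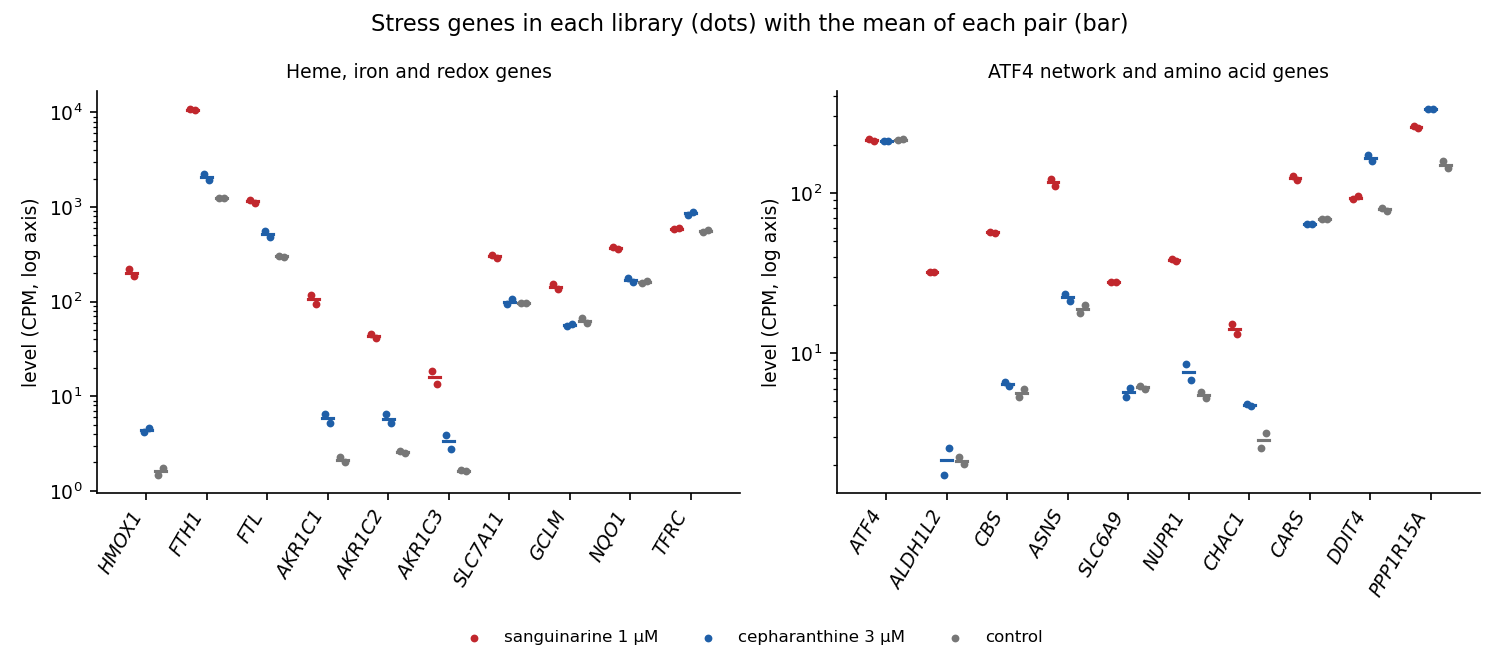
Levels in CPM on a log axis for heme, iron and redox genes (left) and for genes of the ATF4 network, amino acids and tRNA charging (right), with a dot for each library and a bar for the mean of each pair. Sanguinarine stands highest in most, cepharanthine stands highest in TFRC, DDIT4 and PPP1R15A, and ATF4 is level.

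A core of the ATF4 response element, TGATGNAA, was searched on both strands and found in 4.46% of the 27305 genes. In the table it was present in 7 of 16 cytosolic synthetases, 6 of 16 genes of amino acid synthesis and transport and 4 of 16 network regulators. Among the synthetases the match did not follow the calls alone, with 4 of 7 genes called higher and 3 of 7 not called. Among the amino acid genes it was in 3 of 10 called higher, 1 of 2 called lower and 2 of 4 not called. Among the regulators it was in 3 of 7 called higher, 0 of 2 called lower and 0 of 6 not called, and the remaining match was in a gene not tested. No match in a stretch printed above overlapped another of the 3 motifs.

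Mitochondrial DNA encodes 13 respiratory chain mRNAs and 2 ribosomal RNAs, which a single polymerase, POLRMT, makes as long transcripts of both strands. All 13 mRNAs were lower with sanguinarine by more than 2-fold, with differences from -2.37 to -1.29 and a median of -1.86. Relative to the control the median was -1.98 with sanguinarine and -0.26 with cepharanthine. Their share of all counted reads was 0.901% and 0.984% in the sanguinarine libraries, 3.09% and 3.16% in the cepharanthine libraries and 3.78% and 3.85% in the control libraries. The sanguinarine libraries therefore stood apart from both others, with no overlap.

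The mRNAs did not differ by the same amount. ND1, a complex I subunit encoded next to the ribosomal RNAs, had 384 and 405 CPM with sanguinarine, 2060 and 2010 CPM with cepharanthine, and 1550 and 1570 CPM in the control. Its neighbour ND2 had 685 and 724 CPM with sanguinarine, 1670 and 1780 CPM with cepharanthine, and 1900 and 1830 CPM in the control. The cepharanthine libraries were thus above the control for ND1 and below it for ND2, and the differences between the alkaloids were -2.37 ± 0.05 and -1.29 ± 0.05. COX3, a cytochrome oxidase subunit, differed by -2.35 ± 0.05, and ATP8 and ATP6, subunits of ATP synthase, by -2.18 ± 0.06 and -2.17 ± 0.04. COX1 and COX2, the catalytic subunits of cytochrome oxidase, differed by -1.91 ± 0.05 and -1.88 ± 0.05. CYTB, of complex III, differed by -1.45 ± 0.04, and the complex I subunits ND3, ND4 and ND5 by -1.50 ± 0.06, -1.47 ± 0.04 and -1.66 ± 0.05. ND6, the one mRNA of the light strand, had 170 and 176 CPM with sanguinarine, 527 and 599 CPM with cepharanthine, and 596 and 607 CPM in the control, so transcripts of both strands were lower. The 12S ribosomal RNA RNR1 differed by -2.15 ± 0.08. The 16S RNA RNR2 had 1420 and 1370 CPM with sanguinarine, 4540 and 4850 CPM with cepharanthine, and 3450 and 3080 CPM in the control, in libraries made from poly(A) RNA.

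The nuclear genes that serve mitochondrial DNA moved little and not one way. POLRMT had 92.3 and 96.2 CPM with sanguinarine, 69.4 and 64.8 CPM with cepharanthine, and 89.5 and 82.6 CPM in the control, and was higher by 0.49 ± 0.06. POLG, the DNA polymerase, differed by -0.47 ± 0.07, SLIRP by -0.37 ± 0.08 and LRPPRC by -0.29 ± 0.06, the last 2 partners in keeping mitochondrial mRNAs stable. TFAM, which packs the DNA, had 73.7 and 71.7 CPM with sanguinarine, 77.8 and 94.9 CPM with cepharanthine, and 84.6 and 85.3 CPM in the control. Its difference of -0.25 ± 0.07 did not pass without sanguinarine replicate 2, without cepharanthine replicate 2, with total counts alone or in the fit of all 16 libraries. Over 29 such factors, 11 were lower and 3 higher. The number lower was 7 without sanguinarine replicate 1, 6 without sanguinarine replicate 2, 7 without cepharanthine replicate 2, and 4 both in the fit of all 16 libraries and with total counts alone, and 1 was higher without sanguinarine replicate 1.

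Nuclear-encoded respiratory subunits were lower in 35 of 75 cases and higher in 1 (0 without sanguinarine replicate 2, 3 without cepharanthine replicate 1), with a median of -0.17, a far smaller difference than that of the mitochondrial mRNAs. The number lower was 15 in the fit of all 16 libraries, 21 with total counts alone and 20 without sanguinarine replicate 2, and none was lower by more than 2-fold. SDHA, the flavoprotein of complex II, had 629 and 619 CPM with sanguinarine, 936 and 956 CPM with cepharanthine, and 930 and 894 CPM in the control, a difference of -0.60 ± 0.05. The ATP synthase subunits ATP5I, ATP5G2 and ATP5G1 differed by -0.52 ± 0.09, -0.50 ± 0.06 and -0.50 ± 0.07. Among 14 mitochondrial chaperones and proteases 7 were lower (4 without sanguinarine replicate 2, 3 in the fit of all 16 libraries), led by the co-chaperonin HSPE1 at -0.59 ± 0.06. The matrix protease LONP1 was higher by 0.31 ± 0.06, though not in that fit, and 2 were higher without either cepharanthine library. The enzymes that charge mitochondrial tRNA gave 2 higher and 7 lower of 17, against 4 and 3 with total counts alone and 0 and 3 in the fit of all 16 libraries. Without sanguinarine replicate 1 these counts were 1 and 3, 0 were higher without sanguinarine replicate 2 and 1 without cepharanthine replicate 2. Over 77 mitochondrial ribosomal proteins 7 were higher and 23 lower, a share called of 39.0%, below that of protein-coding genes as a whole. The counts were 12 and 10 with total counts alone and 0 and 3 in the fit of all 16 libraries. With either sanguinarine library left out 3 were higher, and without cepharanthine replicate 2, 2 were higher. Without sanguinarine replicate 2, 12 were lower. MRPL11 and MRPL17 differed most, by -0.57 ± 0.07 and -0.47 ± 0.06.

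**Figure D5:**
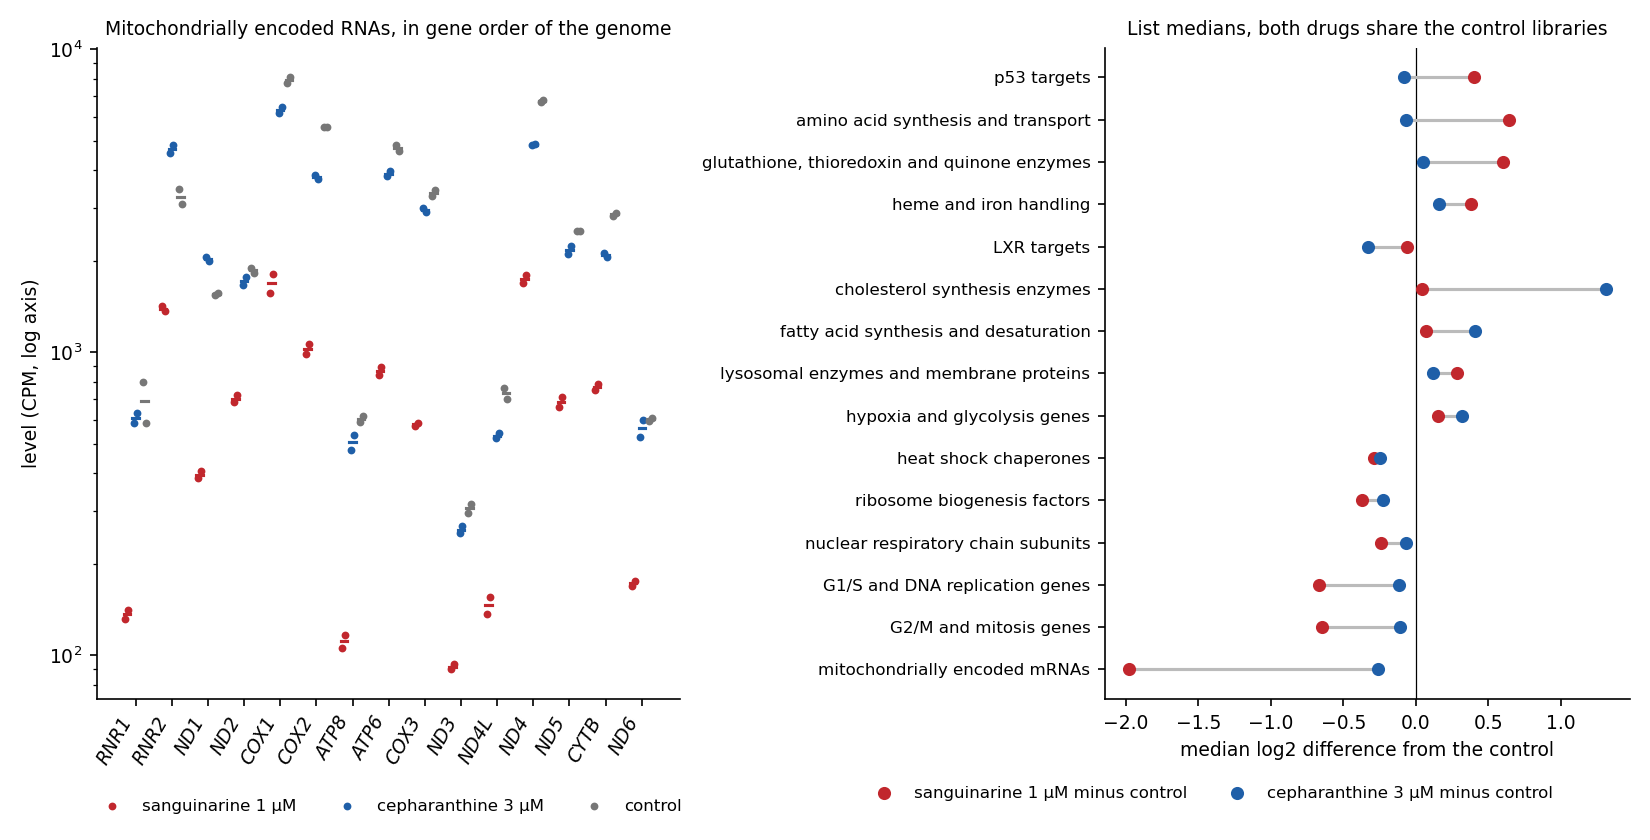
Left, levels in CPM on a log axis of the 15 RNAs of mitochondrial DNA, with a dot for each library and a bar for the mean of each pair; the sanguinarine libraries lie below all others for every RNA. Right, the median log2 difference of 15 gene lists from the shared control libraries, sanguinarine in red and cepharanthine in blue, with mitochondrial mRNAs at -1.98 and -0.26 and cholesterol synthesis at 0.04 and 1.31.

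Proliferation genes were lower with sanguinarine nearly throughout. Of 38 genes of the G1/S transition and DNA replication, 36 were lower and 0 higher, with a median of -0.59, and of 31 genes of G2/M and mitosis, 29 were lower and 0 higher, with a median of -0.53. Relative to the control the medians were -0.67 and -0.65 with sanguinarine and -0.12 and -0.11 with cepharanthine. MKI67, the proliferation antigen Ki-67, had 500 and 507 CPM with sanguinarine, 967 and 1020 CPM with cepharanthine, and 1060 and 1080 CPM in the control. CDC45, part of the replicative helicase, had 14 and 13.7 CPM with sanguinarine, 29.5 and 28.9 CPM with cepharanthine, and 28.8 and 30 CPM in the control. For both, the sanguinarine libraries lay well below the others, which were close together, with differences of -0.98 ± 0.05 and -1.07 ± 0.09. GINS2 of the same helicase differed by -0.93 ± 0.07, the ribonucleotide reductase RRM2 by -0.82 ± 0.05, the mitotic kinase AURKB by -0.91 ± 0.06, the spindle motor KIF11 by -0.84 ± 0.06 and the topoisomerase TOP2A by -0.84 ± 0.06. E2F1, a factor that drives S phase genes, differed by -0.71 ± 0.08. The 4 genes not called were CCNE1, CDT1, CDC25B and HMMR. In bulk RNA, fewer cells in cycle and less RNA per cycling cell cannot be told apart.

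Targets of p53 were higher in 23 of 24 cases, with a median of 0.51, and 15 were higher in the fit of all 16 libraries. CDKN1A, the p21 inhibitor of cyclin-dependent kinases, had 601 and 593 CPM with sanguinarine, 347 and 316 CPM with cepharanthine, and 254 and 259 CPM in the control. MDM2, the ligase that degrades p53, had 233 and 244 CPM with sanguinarine, 128 and 154 CPM with cepharanthine, and 147 and 152 CPM in the control. GDF15, a stress cytokine, had 296 and 306 CPM with sanguinarine, 144 and 116 CPM with cepharanthine, and 56.2 and 57.3 CPM in the control. Cepharanthine thus lay between the others for CDKN1A and GDF15 and overlapped the control for MDM2. The differences were 0.85 ± 0.05, 0.76 ± 0.06 and 1.21 ± 0.07. The death genes BBC3 (PUMA) and PMAIP1 (NOXA) were higher by 1.34 ± 0.13 and 1.08 ± 0.08. CCNG1 alone was lower, by 0.38, and did not pass in the fit of all 16 libraries. In the BCL2 family, 4 of 18 were higher and 2 lower, a share below that of protein-coding genes as a whole, with 7 higher without cepharanthine replicate 1. Besides BBC3 and PMAIP1 these were BMF at 1.68 and 2.61 CPM with sanguinarine against 0.553 and 0.917 CPM with cepharanthine, and BAX, higher by 0.47 ± 0.06. The mitophagy receptor BNIP3L and the survival factor MCL1 were lower, by 0.56 and 0.27. MYC had 300 and 299 CPM with sanguinarine, 285 and 270 CPM with cepharanthine, and 321 and 308 CPM in the control, and was not called. Its network gave 3 higher and 2 lower of 12, a share near that of protein-coding genes as a whole. Among them was the MYC antagonist MXD4, higher by 0.74 ± 0.09, and 1 member was higher without sanguinarine replicate 2.

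Ribosome biogenesis factors were lower in 18 of 35 cases and higher in 1, against 8 and 0 in the fit of all 16 libraries. The one higher did not pass without either sanguinarine library or without cepharanthine replicate 2, leaving 0. NPM1, a nucleolar chaperone, had 754 and 734 CPM with sanguinarine, 1060 and 1170 CPM with cepharanthine, and 1230 and 1240 CPM in the control, and differed by -0.58 ± 0.05. Nucleolin, NCL, differed by -0.46 ± 0.04, the methyltransferase fibrillarin, FBL, by -0.44 ± 0.06 and UTP20 by -0.58 ± 0.07. Cytosolic ribosomal proteins differed little, with 60 of 78 not called, a median of -0.06 and all differences within -0.34 to 0.36. Their calls were not stable, since 8 were higher and 10 lower here, against 0 and 1 in the fit of all 16 libraries and 18 and 2 with total counts alone. Without sanguinarine replicate 1, 4 were higher, without cepharanthine replicate 2, 5 were higher, and without sanguinarine replicate 2, 2 were lower. Proteasome subunits were lower in 16 of 31 cases and higher in 0, by at most 0.31, but 6 were lower without sanguinarine replicate 2 and 2 in the fit of all 16 libraries.

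Cytosolic chaperones differed in both directions. HSPA8, the constitutive HSP70, had 1130 and 1090 CPM with sanguinarine, 1840 and 1890 CPM with cepharanthine, and 2280 and 2270 CPM in the control. HSPB1, a small heat shock protein, had 123 and 123 CPM with sanguinarine, 52.4 and 48.1 CPM with cepharanthine, and 80.1 and 87.7 CPM in the control. Sanguinarine stood furthest from the control for HSPA8, while the control lay between the alkaloids for HSPB1. The differences were -0.75 ± 0.04 and 1.29 ± 0.07. CHORDC1, a co-chaperone of HSP90, differed by -0.66 ± 0.07 and HSP90AA1 by -0.44 ± 0.05, whereas the inducible HSPA1A, at 64.5 and 69.4 CPM with sanguinarine against 62.6 and 56.3 CPM with cepharanthine, was not called. Over 23 chaperones 5 were higher and 10 lower, 2 and 5 in the fit of all 16 libraries and 8 and 6 with total counts alone. In the unfolded protein response of the endoplasmic reticulum 9 of 23 were higher and 4 lower, all within -0.30 to 0.41, and the fit of all 16 libraries called 1 and 2. HSPA5, the chaperone BiP, had 895 and 913 CPM with sanguinarine, 737 and 717 CPM with cepharanthine, and 934 and 941 CPM in the control, so cepharanthine lay below the control and the difference was 0.31 ± 0.05.

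Cytokine and NF-kB feedback genes were higher in 15 of 22 cases and lower in 2, with 9 higher in the fit of all 16 libraries and 9 without sanguinarine replicate 1. IL6, an inflammatory cytokine, had 26.8 and 26.4 CPM with sanguinarine, 7.86 and 9.87 CPM with cepharanthine, and 4.19 and 5.43 CPM in the control. TRAF1, a signalling adaptor, had 10.6 and 11 CPM with sanguinarine, 2.55 and 2.48 CPM with cepharanthine, and 3.16 and 4.17 CPM in the control. IL6 was thus above the control with both alkaloids and TRAF1 with sanguinarine alone. The differences were 1.58 ± 0.11 for IL6, 2.11 ± 0.14 for TRAF1, 1.96 ± 0.29 for the growth factor CSF2 and 1.12 ± 0.15 for the chemokine CCL20. CXCL8 was higher by 0.28 ± 0.08, but not without sanguinarine replicate 1, without cepharanthine replicate 1 or in the fit of all 16 libraries. LIF, a cytokine of the IL6 family, went the other way, with 85.4 and 90.8 CPM with sanguinarine, 170 and 159 CPM with cepharanthine, and 115 and 115 CPM in the control, a difference of -0.90 ± 0.06. NFKB1 was lower too, by 0.38.

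AP-1 and MAPK feedback genes gave 5 higher and 10 lower of 26, and 2 and 5 in the fit of all 16 libraries. FOSL1, an AP-1 factor downstream of ERK, had 214 and 206 CPM with sanguinarine, 331 and 320 CPM with cepharanthine, and 235 and 226 CPM in the control. The ERK feedback genes DUSP6 and SPRY2 differed by -0.48 ± 0.07 and -0.51 ± 0.11, and the phosphatase DUSP1 by -0.49 ± 0.06. EGR1, an immediate early factor, was higher by 0.88 ± 0.07. The other members called higher were AP-1 factors, so AP-1 genes went both ways. In the fit of all 16 libraries JUNB, JUND, FOSL2 and JUN differed by 0.41, 0.40, 0.36 and 0.26, and of these only FOSL2 passed there. Interferon-stimulated genes were mixed, with 7 higher and 6 lower of 24. The ubiquitin-like ISG15 had 48.6 and 50 CPM with sanguinarine, 13.7 and 12.6 CPM with cepharanthine, and 12.6 and 11 CPM in the control, a difference of 1.91 ± 0.09, and OASL was higher by 1.40 ± 0.12. IFIT1, an RNA-binding antiviral protein, was lower by 0.80, and OAS1, which makes the activator of RNase L, by 0.46, the last not in the fit of all 16 libraries. Without cepharanthine replicate 1, 11 were higher, and without sanguinarine replicate 2, 3 were lower.

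Hypoxia and glycolysis genes were lower in 18 of 30 cases and higher in 5 (11 and 3 in the fit of all 16 libraries). ALDOC, an aldolase, had 2.82 and 3.27 CPM with sanguinarine, 10.1 and 9.92 CPM with cepharanthine, and 3.04 and 2.76 CPM in the control. CA9, carbonic anhydrase IX, had 2.10 and 2.77 CPM with sanguinarine, 6.40 and 5.14 CPM with cepharanthine, and 1.46 and 1.26 CPM in the control. With sanguinarine, ALDOC stood near the control and CA9 above it, and both genes were highest with cepharanthine. They differed between the alkaloids by -1.72 ± 0.17 and -1.24 ± 0.21, and the glucose transporter SLC2A3 by -0.65 ± 0.13. PFKFB4, which sets a glycolytic activator, and ADM, adrenomedullin, were higher by 1.26 ± 0.11 and 1.01 ± 0.07. NDRG1, another hypoxia-induced gene, had 128 and 118 CPM with sanguinarine, 99 and 93.9 CPM with cepharanthine, and 22.2 and 20 CPM in the control. It stood well above the control with both, and its difference of 0.35 ± 0.07 did not pass in the fit of all 16 libraries.

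Genes of the aryl hydrocarbon receptor were higher in 4 of 7 cases, 2 in the fit of all 16 libraries. The aldehyde dehydrogenase ALDH3A1 had 12.4 and 14.4 CPM with sanguinarine, 3.30 and 2.98 CPM with cepharanthine, and 5.29 and 4.91 CPM in the control, a difference of 2.09 ± 0.14, and CYP1B1 was higher by 1.04 ± 0.16. CYP1A1, the usual readout of the receptor, had 4.06 and 4.69 CPM with sanguinarine, 3.51 and 2.53 CPM with cepharanthine, and 2.56 and 1.52 CPM in the control. Its difference of 0.54 ± 0.17 (edgeR adjusted p = 0.0148) did not pass without sanguinarine replicate 2, without cepharanthine replicate 2 or in the fit of all 16 libraries. Metallothioneins, which bind zinc, and zinc response genes together gave 2 higher and 3 lower of 7. MT2A had 1200 and 1160 CPM with sanguinarine, 2040 and 1790 CPM with cepharanthine, and 1250 and 1150 CPM in the control, and MT1E moved with it, at -0.70 ± 0.05 and -0.61 ± 0.06. The zinc exporter SLC30A1 was higher by 0.50 ± 0.07. Without sanguinarine replicate 1, or without cepharanthine replicate 2, 1 metallothionein or zinc gene was higher.

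Epithelial genes changed one by one rather than as a class. Keratins gave 7 higher and 7 lower of 16, with a median near 0 whose sign changed between settings. KRT23 had 1.91 and 2.43 CPM with sanguinarine, 9.24 and 7.41 CPM with cepharanthine, and 3.62 and 5.27 CPM in the control, a difference of -1.94 ± 0.18. KRT4, a mucosal keratin, had 0.305 and 0.557 CPM with sanguinarine, 1.28 and 1.01 CPM with cepharanthine, and 4.81 and 5.54 CPM in the control. It was below the control with both alkaloids and lowest with sanguinarine. KRT14 and KRT80 were higher, by 0.58 ± 0.12 and 0.46 ± 0.05. Among junction and mesenchymal genes 5 of 17 were higher and 6 lower (2 lower in the fit of all 16 libraries). The matrix protein fibronectin, FN1, had 1740 and 1730 CPM with sanguinarine, 1050 and 1090 CPM with cepharanthine, and 1080 and 1040 CPM in the control, a difference of 0.70 ± 0.05. The junction genes TJP1 and CDH3 differed by -0.45 ± 0.05 and -0.42 ± 0.05. The claudin CLDN3 and the cadherin CDH2 went the other way, by 1.64 and 0.39 in the fit of all 16 libraries, where both passed. CLDN1 was called higher as well, though not in that fit. Among matrix proteases, inhibitors and integrins 11 of 23 were higher and 4 lower, with 5 higher in the fit of all 16 libraries. SERPINE2, a protease inhibitor, was higher by 1.47 ± 0.12, while the collagenase MMP1 and tenascin, TNC, were lower by 1.26 and 1.08. Matrix proteases went both ways. MMP10 was higher, by 2.54 in the fit of all 16 libraries, and kept its call under every alternative. MMP9 and MMP3 were higher too, but lost the call under some alternatives.

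Of 23 genes on the neuroendocrine list, which takes in the tuft cell factor POU2F3, 11 held enough reads to be tested. Of these, 3 were higher and 0 lower, a share below that of protein-coding genes as a whole. The median of 0.27 was -0.06 without sanguinarine replicate 1. UCHL1, a ubiquitin hydrolase of neurons and many tumours, had 271 and 247 CPM with sanguinarine, 145 and 141 CPM with cepharanthine, and 155 and 157 CPM in the control, a difference of 0.85 ± 0.06. SCG5, a secretory granule chaperone, had 12.7 and 12.2 CPM with sanguinarine, 4.01 and 4.12 CPM with cepharanthine, and 0.862 and 1.10 CPM in the control. POU2F3 had 1.16 and 0.629 CPM with sanguinarine against 0.0987 and 0.0899 CPM with cepharanthine, where it rests on few reads. The classical granule proteins CHGA and CHGB and the membrane markers SYP and NCAM1 stood at or below 1.16 CPM in all 6 libraries.

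Outside the lists, ANGPTL4, a secreted inhibitor of lipoprotein lipase, had 121 and 111 CPM with sanguinarine, 8.51 and 8.97 CPM with cepharanthine, and 8.26 and 8.61 CPM in the control, a difference of 3.73 ± 0.09 (edgeR adjusted p = 5.39e-26). ZNF469, a zinc finger gene linked to collagen in the cornea, had 38.9 and 39.2 CPM with sanguinarine, 4.22 and 3.18 CPM with cepharanthine, and 4.50 and 4.51 CPM in the control. RRAD, a small GTPase, had 11.5 and 12 CPM with sanguinarine, 1.42 and 1.53 CPM with cepharanthine, and 2.66 and 2.32 CPM in the control. In these 3 genes cepharanthine lay near or below the control. CRIP2, a LIM domain protein, was higher by 3.80 ± 0.23 and MAP2, a microtubule protein of neurons, by 3.18 ± 0.20. FGFBP1, which carries fibroblast growth factors out of the matrix, had 6.49 and 6.74 CPM with sanguinarine, 54.1 and 49.7 CPM with cepharanthine, and 20.1 and 19.3 CPM in the control. The control thus lay between the alkaloids, which differed by -2.97 ± 0.09.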

How the data were processed

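RNA was sequenced from poly(A) libraries of NCI-H1688 cells. The authors deposited a count table, whole reads per gene before any normalization, and RPKM values for the same genes, per the file headers. RPKM recomputed from the counts differed by at most 5.1e-15 in relative terms, so counts were analysed. Per the labels' design text, reads were aligned with STAR 2.5.1 to GRCh38 with GENCODE vM21, and DESeq2 was used. That release name belongs to the mouse series, and the coordinates in the tables look like an older human build, so none of them is given and the annotation is uncertain. How reads were assigned to genes, and whether strand was used, is not stated. No column of sample values was left without a sample, and 27 gene symbols stored as dates were restored.

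The 8 libraries of the first table (2 per group) were fitted with edgeR 4.0.16 (limma 3.58.1, R 4.3.3), using filterByExpr, TMM factors and the quasi-likelihood test, with Benjamini-Hochberg adjustment over 18756 genes. The standard error is the log2 difference over the square root of F and is approximate, most of all at few reads. Intervals are 95%. Duplicates are labelled as separate samples, and p-values measure only the spread between these libraries. Floors and intervals of counts cover counting error only.

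Members and gene lists were chosen with earlier results of these data known, and the lists support nothing by their choice. Genes were named by a rule. It took the 12 called protein-coding genes furthest in each direction, of at least 5 CPM in either group and without overlap of libraries. It took up to 4 called members per list and direction, a set of anchor genes whatever their values, and up to 5 members that went against their list or did not pass. Marker genes, RNR1, RNR2, TXNRD1 and the genes of the closing observations were added after values were seen. Alternatives were other size factors (DESeq2 1.42.0), other filters, other sets of libraries, each library left out, and DESeq2's own test. The procedure was tested on simulated data. Promoters came from RefSeq and were searched with Python 3.11.15. Some genes and sequences are not reported here.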

Additional observations from a re-analysis of the deposited data

How the results depend on the processing

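Of 264 named genes called, 182 stayed called under every one of 16 alternatives that tested them and 82 lost the call under at least one, 78 of them in the fit of all 16 libraries; 0 of the 264 changed sign. That fit, whose groups include another table's drugs, called 3267 genes, 1674 higher and 1593 lower. With total counts alone 2133 genes were lower, and the median of all genes moved to 0.08. Requiring 1 CPM in 2 libraries, which tests fewer genes, left 643 calls over 2-fold, 515 higher and 128 lower. Leaving out 1 library gave 4497 to 6516 calls, 2211 to 3321 higher and 2286 to 3322 lower; the lowest was without sanguinarine replicate 2. Over 2-fold these ranges were 760 to 1036, 573 to 835 and 152 to 201. List medians changed sign with total counts for NRF2 and its partners (0.03), heat shock chaperones (0.01), V-ATPase subunits (0.02), cytosolic ribosomal proteins (0.03) and keratins (0.08). The neuroendocrine median turned to -0.04 with the 1 CPM minimum and -0.06 without sanguinarine replicate 1, and the MYC network's to -0.01 in the fit of all 16 libraries. The keratin median was 0.00 with only the 4 libraries, 0.01 with the 1 CPM minimum and -0.04 to 0.03 with 1 library left out. The cause of these changes was not tested. No paired analysis was possible because the labels of the first table give its groups no shared replicate numbers. Duplicates limit every comparison, and low genes such as ABCG1 with cepharanthine rest on few reads.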

Other observations

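Genes outside the lists, chosen after their values were seen, differed too. PTGS2, the inducible cyclooxygenase, differed by -1.89, and PLA2G4A, the phospholipase that frees its substrate, by -1.78. CDH5, a cadherin of endothelium, had 4.56 and 4.22 CPM with sanguinarine, 16.7 and 11.3 CPM with cepharanthine, and 19.9 and 19.6 CPM in the control. Other endothelial markers, PECAM1, VWF and KDR, stood at or below 0.311 CPM in the 6 libraries. INHBA, an activin subunit, was higher by 1.58 and MAP1B, a microtubule protein, by 1.95.

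RNAs without a poly(A) tail differed between libraries of a pair. RMRP, the RNA of an endoribonuclease, had 0.935 and 9.6 CPM with sanguinarine, 1.13 and 1.96 CPM with cepharanthine, and 97.1 and 39.2 CPM in the control. RN7SK, which holds back transcription elongation, had 7.54 and 20.7 CPM with sanguinarine, 5.76 and 7.15 CPM with cepharanthine, and 80.6 and 32.2 CPM in the control. The part of library preparation in these values was not tested.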
